A study of Danio rerio with 6 samples.

Results

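The Pax3/7 family in zebrafish neural crest (NC) cells was followed through 3 genes, pax3a (ENSDARG00000010192), pax7a (ENSDARG00000100398) and pax7b (ENSDARG00000070818), taken by Ensembl identifier from the 32057 genes of the table. NC cells at 24 hpf carried 2 transgenes in both populations, Tg(7XTCF:nls-mCherry)ia5, a nuclear reporter driven by binding sites for TCF, the transcription factor of canonical Wnt signaling, and Tg(-7.2sox10:EGFP)ir937, in which a sox10 promoter fragment marks NC cells. EGFP+ cells were parted by FACS on mCherry, and 3 libraries were made from positive (high-Wnt) and 3 from negative (low-Wnt) cells, with no drug or mutation between the groups. The labels do not say how many embryos went into a library or whether the replicates came from separate clutches, so the p-values below measure only the spread between these libraries. The comparison asked whether expression of these genes differed between NC cells that responded strongly or weakly to Wnt.

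Pax3 and Pax7 proteins are closely related transcription factors that bind DNA through a paired domain and a homeodomain. They act at the neural plate border, where canonical Wnt signaling helps to induce the NC, and later in NC derivatives, and in zebrafish they are required for xanthophores, the yellow pigment cells. The same genes are also used in the dorsal neural tube and in muscle progenitors. Zebrafish carry duplicates of both genes. pax7a and pax7b are duplicates of each other, so reads common to both are divided between them by estimate in RSEM, and how many there were is not known from TPM values.

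Values are TPM, transcript abundances scaled to a fixed total in each library and for transcript length, which can therefore be compared between genes. Between 9230 and 14417 genes reached 1 TPM in a library. The lowest number belonged to low-Wnt replicate 3, and the other 5 libraries had 13481 or more. Because that library stood apart, the fits of the 3 genes are given with and without it. Most other genes named further below are given only with the fit without it. TPM values keep no sequencing depth, so no counting error is given. All 4 NC markers examined, sox10, foxd3, crestin and tfap2a, were detected in every library, with a summed level of 575 to 697 TPM in high-Wnt libraries and, across low-Wnt replicates 1, 2 and 3, of 462, 466 and 119 TPM.

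All 3 genes were expressed in both populations. Each had higher TPM in every high-Wnt library than in any low-Wnt library, as did 22.4% of all tested genes. pax3a, the least abundant, differed most in proportion of TPM with or without low-Wnt replicate 3. With all 6 libraries it was at 2.70 times its low-Wnt mean, beside 1.72 for pax7a and 1.80 for pax7b. Without that replicate the ratios were 2.497 for pax3a, 1.24 for pax7a and 1.31 for pax7b. None of the 3 passed the adjusted threshold with all 6 libraries. pax3a passed it without low-Wnt replicate 3, where 7.17% of tested genes were called higher, and pax7a and pax7b did not.

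pax3a, an early NC and neural plate border gene, had 8.98, 9.66 and 11.3 TPM across high-Wnt replicates 1, 2 and 3. In low-Wnt replicates 1, 2 and 3 it had 3.57, 4.43 and 3.08 TPM. The populations did not overlap, the lowest high-Wnt library being 2.03 times the highest low-Wnt library, and low-Wnt replicate 3 lay close to the other low-Wnt libraries. The means were 9.99 ± 1.204 TPM (SD, n = 3) for high-Wnt and 3.69 ± 0.683 TPM (SD, n = 3) for low-Wnt cells, or 4 ± 0.608 TPM (SD, n = 2) without low-Wnt replicate 3. On the log2(TPM + 1) scale the log2 fold change was 1.23 (SE 0.44, limma adjusted p = 0.262) with all 6 libraries and 1.14 (SE 0.23, limma adjusted p = 0.0199) without low-Wnt replicate 3.

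pax7a, which with its duplicate acts in xanthophore development in zebrafish, had 38.6, 44.0 and 44.5 TPM across high-Wnt replicates 1, 2 and 3. In low-Wnt replicates 1, 2 and 3 it had 34.4, 33.9 and 5.44 TPM. The populations did not overlap, but the nearest high-Wnt and low-Wnt libraries were only 4.19 TPM apart, and low-Wnt replicate 3 was far below all others. The means were 42.3 ± 3.26 TPM (SD, n = 3) for high-Wnt and 24.6 ± 16.6 TPM (SD, n = 3) for low-Wnt cells, or 34.1 ± 0.389 TPM (SD, n = 2) without replicate 3. The log2 fold change was 1.12 (SE 0.66, limma adjusted p = 0.471) with all 6 libraries and 0.30 (SE 0.14, limma adjusted p = 0.196) without low-Wnt replicate 3.

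pax7b, the most abundant of the family, had 72.7, 77.2 and 72.4 TPM across high-Wnt replicates 1, 2 and 3. In low-Wnt replicates 1, 2 and 3 it had 55.9, 57.6 and 10.1 TPM. As for pax7a, low-Wnt replicate 3 was the lowest library, but the order within each population otherwise differed. The gap between the lowest high-Wnt and the highest low-Wnt library was 14.9 TPM. The means were 74.1 ± 2.69 TPM (SD, n = 3) for high-Wnt and 41.2 ± 26.9 TPM (SD, n = 3) for low-Wnt cells, or 56.7 ± 1.15 TPM (SD, n = 2) without replicate 3. The log2 fold change was 1.17 (SE 0.63, limma adjusted p = 0.437) with all 6 libraries and 0.38 (SE 0.13, limma adjusted p = 0.0840) without low-Wnt replicate 3.

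**Figure D1:**
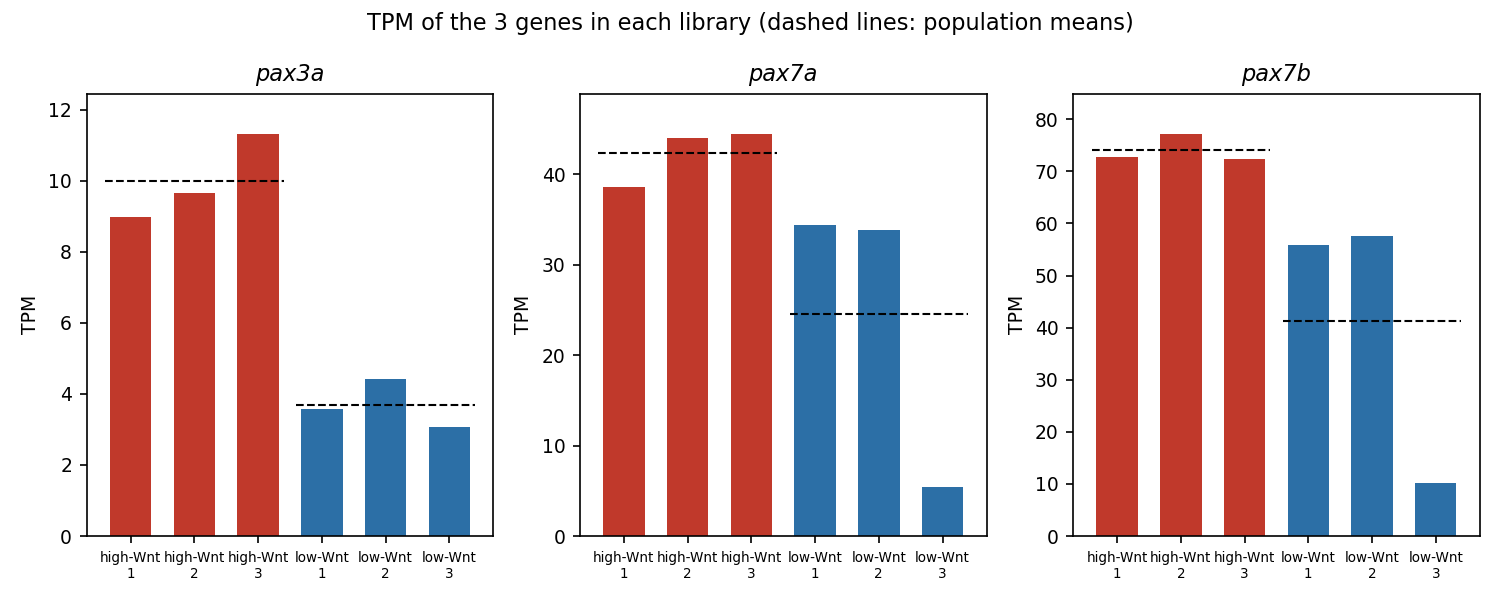
TPM of pax3a, pax7a and pax7b (1 panel each, y axis in TPM from 0) in the 3 high-Wnt (red) and 3 low-Wnt (blue) libraries, with dashed lines at the population means. Every red bar is above every blue bar, and low-Wnt replicate 3 is low for pax7a (5.44 TPM) and pax7b (10.1 TPM) but not set apart for pax3a (3.08 TPM).

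All 3 genes lacked overlap between the populations in the direction of high-Wnt cells, as did 22.4% of all tested genes (25.1% where low-Wnt replicate 3 was left out). With all 6 libraries, 0 of the 3 genes passed a Benjamini-Hochberg adjusted p-value of 0.05 in limma, against 0.261% of tested genes called higher in high-Wnt cells. Before adjustment, and with no further scaling of the libraries, 1 of the 3, pax3a, had a p-value under 0.05, against 11.7% of tested genes in that direction. Without low-Wnt replicate 3, 1 of the 3 was called, against 7.17% of tested genes called higher, and 2 of 3, pax3a and pax7b, had an unadjusted p-value under 0.05, against 17.0%. For each gene a two-sided exact permutation test on TPM gave p = 0.1 with 3 libraries against 3 and p = 0.2 with 3 against 2, which are the smallest values those designs allow. In bulk samples, fewer expressing cells and less RNA per cell cannot be told apart.

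Over the whole table, the tested genes had a median log2 fold change of 0.51 with all 6 libraries and 0.05 without low-Wnt replicate 3, and the values of the 3 genes are to be read against that shift. Quantile normalization, which gives every library the same distribution of values, lowered the 6-library log2 fold changes to 0.59 for pax3a, 0.71 for pax7a and 0.85 for pax7b. Their unadjusted limma p-values were then 0.185, 0.0545 and 0.0320, so pax7b and not pax3a was under 0.05. With each of the 6 libraries centred on its median, the unadjusted limma p-values were 0.155, 0.157 and 0.123. With quantile normalization and without low-Wnt replicate 3 they were 1.05 (limma adjusted p = 0.0293) for pax3a, 0.38 (limma adjusted p = 0.116) for pax7a and 0.47 (limma adjusted p = 0.0460) for pax7b. In that fit 2 of the 3 genes were called, against 6.33% of tested genes called higher. Whether the call for pax7b was made therefore rested on the scaling, while that for pax3a was made under both scalings once this library was left out.

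**Figure D2:**
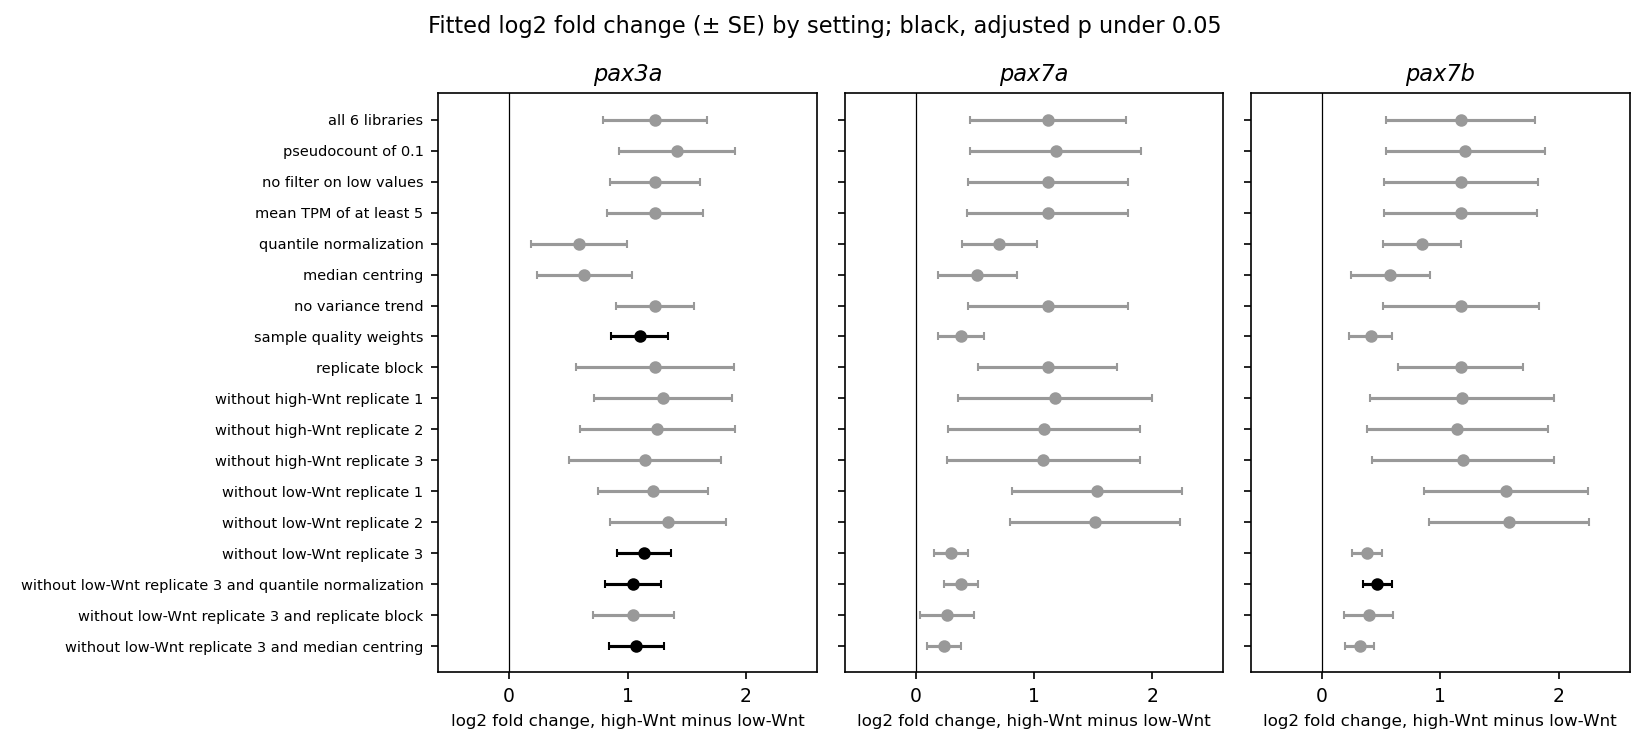
Log2 fold change, high-Wnt minus low-Wnt, with its SE (x axis) for each setting (y axis) and each gene, on the log2 scale with black for a limma adjusted p under 0.05 and grey otherwise. All values are above 0, and those of pax7a and pax7b fall to 0.30 and 0.38 without low-Wnt replicate 3, whereas that of pax3a stays at 1.14.

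The order of the 3 genes was the same in each of the 6 libraries, pax7b above pax7a above pax3a. Among genes that reached 1 TPM in a library, pax7b lay above 88.9% to 89.4% in high-Wnt cells and above 84.7% and 84.8% in the first 2 low-Wnt replicates. For pax7a the shares were 81.3% to 83.3% and 77.0% to 77.4%. pax3a was a mid-range gene in high-Wnt cells, above 50.7% to 57.5% of genes, and lay lower in low-Wnt replicates 1 and 2, above 26.9% and 32.4%. For low-Wnt replicate 3 the shares were 61.8% for pax7b, 49.1% for pax7a and 35.1% for pax3a. By rank within the library, this library was thus the lowest for both pax7 genes and the highest of the 3 low-Wnt libraries for pax3a.

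A ratio within a library does not depend on how that library is scaled. The ratio of pax7a to pax7b was 0.531, 0.570 and 0.614 in high-Wnt replicates 1, 2 and 3. It was 0.615, 0.588 and 0.539 in low-Wnt replicates 1, 2 and 3. The populations overlapped, and the ratio did not differ beyond the spread between libraries (0.571 ± 0.0418 and 0.581 ± 0.0388, SD, n = 3 each; two-sided exact permutation test, p = 0.7, or p = 0.4 without low-Wnt replicate 3). The pair kept this ratio in low-Wnt replicate 3 although the TPM of both was 5.62 to 6.27 times lower there than the mean of the other low-Wnt libraries.

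The part of pax3a in the summed TPM of the family was 7.47%, 7.38% and 8.83% in high-Wnt replicates 1, 2 and 3. It was 3.80%, 4.62% and 16.5% in low-Wnt replicates 1, 2 and 3. Without that library the mean share was 7.89% ± 0.813 (SD, n = 3) in high-Wnt and 4.21% ± 0.580 (SD, n = 2) in low-Wnt cells, with no overlap (exact permutation, two-sided, p = 0.2, the smallest value for 3 against 2). With it the populations overlapped, the low-Wnt mean was 8.32% ± 7.13 (SD, n = 3) and the exact permutation p was 1. The order of the mean shares thus turned on low-Wnt replicate 3, which had the highest share of all.

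**Figure D3:**
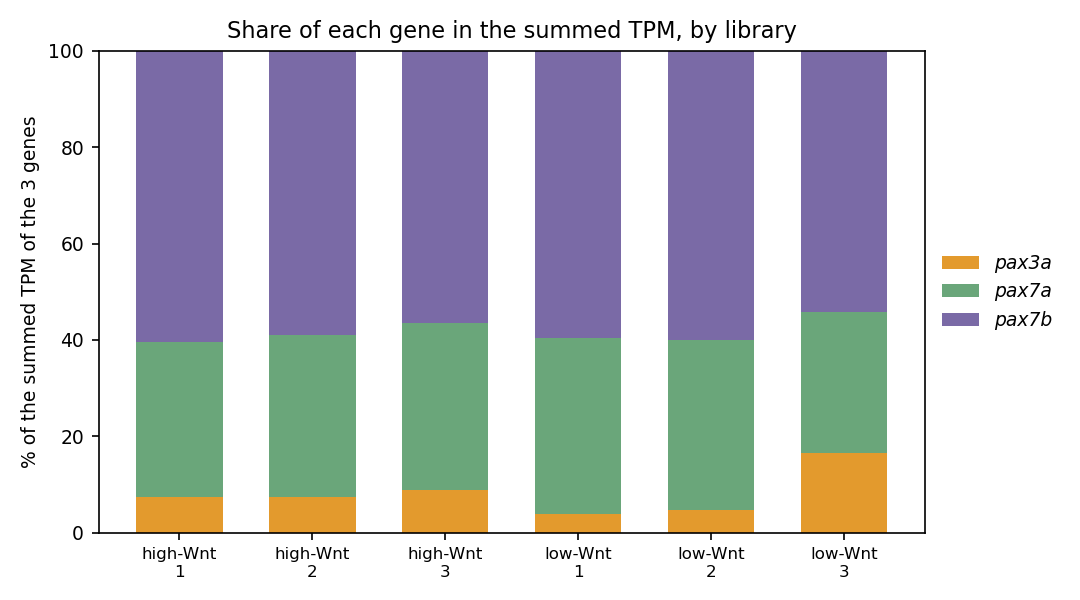
Share of pax3a, pax7a and pax7b in the summed TPM of the 3 genes (y axis, %), in each library (x axis). pax7b takes 54.2% to 60.5% throughout, and the pax3a share is 7.38% to 8.83% in high-Wnt libraries and, across low-Wnt replicates 1, 2 and 3, 3.80%, 4.62% and 16.5%.

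Low-Wnt replicate 3 was lower than the other low-Wnt libraries for most of the table, and the 3 genes were placed differently within that shift. Against the mean of low-Wnt replicates 1 and 2, with 1 TPM added to both, the median log2 ratio of the 14163 tested genes was -1.23. The log2 ratio was -2.45 for pax7a and -2.38 for pax7b, and 15.9% and 17.4% of tested genes had a ratio as low or lower. For pax3a it was -0.29, with 76.7% of tested genes as low or lower. Among genes within a factor of 2 of its own mean in those libraries, the median ratio was -1.47 for the 4459 genes like pax3a, -1.78 for the 3169 like pax7a and -1.46 for the 2384 like pax7b. Of these genes of like abundance, 86.6% were as low as pax3a or lower, 32.1% as low as pax7a and 30.2% as low as pax7b.

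The library profiles of pax7a and pax7b were close to each other and far from that of pax3a. Likeness was measured as the mean absolute difference of log2(TPM + 1) over the 6 libraries after each gene's own mean was subtracted. pax7a and pax7b differed by 0.06 on this measure. Of 13765 named genes compared, pax7b was the 10th nearest to pax7a and pax7a the 15th nearest to pax7b. pax7a differed from pax3a by 0.53 and was only the 5081st nearest to it. In the other 5 libraries the pax7 pair differed by 0.07, and each was then the 144th or 156th nearest of 14544 genes to the other. Among the 13765 named genes compared, the nearest to pax3a over 6 libraries were ITPR2, stk11ip and BMP1, at 0.03, 0.08 and 0.08, all expressed below 4 TPM. ITPR2 and BMP1 reached 1 TPM only in high-Wnt libraries, and the added 1 TPM narrows log2 differences at such low levels. The nearest to pax7a were GCLM, DNAJB12 and slc39a1, each at 0.04, and the nearest to pax7b were FPGS, ZFAND3 and DNAJB12, at 0.02, 0.03 and 0.03.

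A second gene annotated PAX3 (ENSDARG00000028348) was near the limit of the table, with 1.15, 1.17 and 0.92 TPM across high-Wnt replicates 1, 2 and 3. It had 0.07, 0.74 and 0.16 TPM in low-Wnt replicates 1, 2 and 3. These values did not overlap between populations, but the gene did not pass the filter on low TPM with all 6 libraries, and without low-Wnt replicate 3 its log2 fold change was 0.61 (SE 0.33, limma adjusted p = 0.257). Most Pax3 TPM of these cells was thus that of pax3a, whereas both pax7 genes were well above 1 TPM.

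The other Pax genes had at most 12.5 TPM in any library, below both pax7 genes in the same library except in low-Wnt replicate 3 and, for some, at or above the level of pax3a. Of 12 matched, the second PAX3 gene included, 6 were tested with all 6 libraries and 0 were DE in limma. Before adjustment (p under 0.05), 3 were higher and 1 was lower, where 11.7% of all tested genes were higher (1656 of the 2008 in either direction). Without low-Wnt replicate 3, 8 were tested, 2 were higher and 1 was lower in high-Wnt cells. Of all tested genes 7.17% were then higher and 5.57% lower. The median log2 fold change of the list was 0.62, beside 0.05 for all tested genes. A gene annotated PAX1 (ENSDARG00000073814), known from the pharyngeal pouches and sclerotome, fell by 1.55 (SE 0.22, limma adjusted p = 0.00643), from 11.8 and 12.5 TPM in low-Wnt replicates 1 and 2 to 3.30 to 3.82 TPM in high-Wnt libraries. It had 12.4 TPM in low-Wnt replicate 3. PAX9, another pharyngeal gene, rose by 1.87 (limma adjusted p = 0.0438), and a PAX6 gene (ENSDARG00000103379), known from eye and neural tube, rose by 1.201 (limma adjusted p = 0.0260). PAX9 had only 2.25 and 0 TPM in low-Wnt replicates 1 and 2. With quantile normalization of the same libraries PAX9 did not pass (limma adjusted p = 0.0503), while the PAX6 gene did (limma adjusted p = 0.0415). The Pax genes thus moved in both directions, but 0 of this list were DE when same-numbered libraries were also treated as blocks.

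The lists that follow name the NC programme around Pax3/7, with values on the log2(TPM + 1) scale and without low-Wnt replicate 3. In limma, 7.17% of all tested genes were then higher and 5.57% lower in high-Wnt cells. No gene of any of these lists (0) was DE with all 6 libraries, where 0.261% of tested genes were higher and 0.106% lower. Of 24 tested neural plate border and NC specifier genes, 7 were higher and 1 was lower in high-Wnt cells, and the median was 0.53. ZIC1, a neural plate border gene, rose by 2.20 (limma adjusted p = 0.0223), twist1b, one of the Twist1 duplicates of the NC, by 1.41 (limma adjusted p = 0.00922) and snai1a, an NC migration gene, by 1.11 (limma adjusted p = 0.0165). ZIC1 had only 3.10 and 0.28 TPM in low-Wnt replicates 1 and 2. The lower gene, named after its value was seen, was snai2, which fell by 0.85 (limma adjusted p = 0.0297) but was at 0.63 with all 6 libraries. Before adjustment with all 6 libraries, 9 of the 24 were higher and 0 lower at a p-value under 0.05, against 11.7% of all tested genes higher.

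Of 24 tested pigment cell genes, among which are those of the xanthophore lineage that needs Pax7 in zebrafish, 9 were higher and 0 lower. Their median was 0.76, beside 0.05 for all tested genes. KIT, a receptor of melanocyte progenitors, rose by 2.32 (limma adjusted p = 0.00857), an EDNRB gene (ENSDARG00000089334), an endothelin receptor of pigment cells, by 1.60 (limma adjusted p = 0.00462) and SLC24A5, a melanosome ion exchanger, by 1.53 (limma adjusted p = 0.0258). Over all 6 libraries, 11 of the 24 had an unadjusted p-value under 0.05, all higher, against 11.7% of all tested genes in that direction. The genes of pteridine and xanthophore biology given next were chosen after their values were seen, and lay on both sides of the threshold. pts, an enzyme of pteridine synthesis, rose by 1.32 (limma adjusted p = 0.00180), with 135 to 157 TPM in high-Wnt libraries and 62.5, 54.5 and 14.7 TPM across low-Wnt replicates 1, 2 and 3. gch2, another enzyme of that synthesis, had 1602 to 2069 TPM in high-Wnt libraries and 1090, 1544 and 117 TPM across low-Wnt replicates 1, 2 and 3 (log2 fold change 0.48, limma adjusted p = 0.118). For aox5 the log2 fold change was 0.14 (limma adjusted p = 0.523) and for csf1ra, the receptor of xanthophore progenitors, 0.48 (limma adjusted p = 0.227), and these 3 did not pass.

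Of 14 tested skeletogenic crest genes, which mark the arch branch of the NC, 4 were higher and 0 lower, with a median of 0.45. The homeobox genes named next act in the pharyngeal arches. dlx4a rose by 2.03 (limma adjusted p = 0.0204), a PRRX1 gene (ENSDARG00000042027) by 1.23 (limma adjusted p = 0.00896) and BARX1 by 0.67 (limma adjusted p = 0.0473). The other gene annotated PRRX1 (ENSDARG00000033971) was at -0.12 (limma adjusted p = 0.591). dlx4a had only 0.45 and 2.59 TPM in low-Wnt replicates 1 and 2, and its 6.79 TPM in low-Wnt replicate 3 exceeded its 6.18 TPM in high-Wnt replicate 1. Its log2 fold change with all 6 libraries was 1.44 (limma adjusted p = 0.373). BARX1 passed with quantile normalization (limma adjusted p = 0.0377) but not with median centring (limma adjusted p = 0.0641). Over all 6 libraries, 2 of the 14 had an unadjusted p-value under 0.05, both higher, near the 11.7% of all tested genes in that direction. Of 12 tested canonical Wnt targets, 1 was higher and 2 were lower, with a median of -0.12. SP5, a zinc finger factor, fell by 1.35 (limma adjusted p = 0.00810), CCND1, which encodes cyclin D1, fell by 0.89 (limma adjusted p = 0.00529) and a MYC gene (ENSDARG00000007241) rose by 0.55 (limma adjusted p = 0.0286). The other gene annotated MYC (ENSDARG00000045695) was at -0.21 (limma adjusted p = 0.748). For CCND1 the log2 fold change was 0.19 with all 6 libraries, so its direction changed when low-Wnt replicate 3 was left out. It also changed with all 6 libraries kept, to -0.079 with quantile normalization, -0.41 with median centring and -0.81 with sample quality weights. With all 6 libraries, 2 of the 12 were higher and 1 lower at an unadjusted p-value under 0.05. Of all tested genes 11.7% were higher (1656 of the 2008 in either direction). AXIN2, a feedback target of the pathway chosen after its values were seen, had 26.2, 20.4 and 18.0 TPM across high-Wnt replicates 1, 2 and 3 and 24.0, 23.2 and 1.47 TPM in low-Wnt replicates 1, 2 and 3, so the populations overlapped.

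Markers of neural tube and neurons and of muscle were also higher in high-Wnt cells. The neural list does not mark only tissues other than NC. It holds neurog1, which the paper uses to mark neural progenitors of the NC. Of 10 tested neural tube and neuron markers, 8 were higher in high-Wnt cells without low-Wnt replicate 3 and 0 lower, with a median of 1.47. Their summed level was 167 to 195 TPM in high-Wnt and 29.4 to 73.9 TPM in low-Wnt libraries, and none was at 0 in all 6 libraries. Of 7 muscle markers, 6 were higher and 0 lower, with a median of 1.61, and their summed level, mostly actc1b, was 1124 to 1783 TPM in high-Wnt and 412 to 610 TPM in low-Wnt libraries. Of the muscle regulators, MYF5 was at 1.19 to 1.71 TPM in high-Wnt libraries and at 0, 0 and 0.51 TPM across low-Wnt replicates 1, 2 and 3, MYOD1 at 2.79 to 6.14 TPM and at 2.35, 0 and 0.55 TPM, and MYOG at 7.76 to 9.67 TPM and at 3.03, 3.98 and 2.31 TPM. With all 6 libraries, 7 of the 10 neural and 6 of the 7 muscle markers had an unadjusted p-value under 0.05, all higher, and 0 were DE in limma. The unadjusted share of all tested genes in that direction was 11.7%. MYF5, OLIG2 and a DBX1 gene (ENSDARG00000001859) reached 1 TPM only in high-Wnt libraries. They passed the filter through that population alone, so their calls as higher add no support to these counts. The part of neural or muscle cells in the levels of pax3a, pax7a and pax7b was not tested.

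The remaining marker lists were those of the otic vesicle, epidermis, endothelium and blood. Of 6 tested otic vesicle markers, a sox10-expressing tissue, 0 were higher and 1, oc90, was lower, and the summed level of the list was 82.4 to 93.9 TPM in high-Wnt and 62.6 to 144 TPM in low-Wnt libraries. Of 6 epidermis and periderm markers, 2 were higher and 1 lower, with summed levels of 1706 to 1926 TPM and 360 to 1156 TPM. The keratin genes krt5 and krt4 rose by 3.07 (limma adjusted p = 0.00744) and 1.498 (limma adjusted p = 0.00280), and TP63, a regulator of basal epidermis, fell by 0.71 (limma adjusted p = 0.0283) but was at 0.07 with all 6 libraries. Of 4 endothelium and blood markers 2 were tested, and 0 were DE in limma with or without low-Wnt replicate 3, or had an unadjusted p-value under 0.05. Their summed levels, mostly the globin hbae1.1, were 88.6 to 184 TPM and 110 to 206 TPM. The part of these cells in the 3 genes was not tested either.

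**Figure D4:**
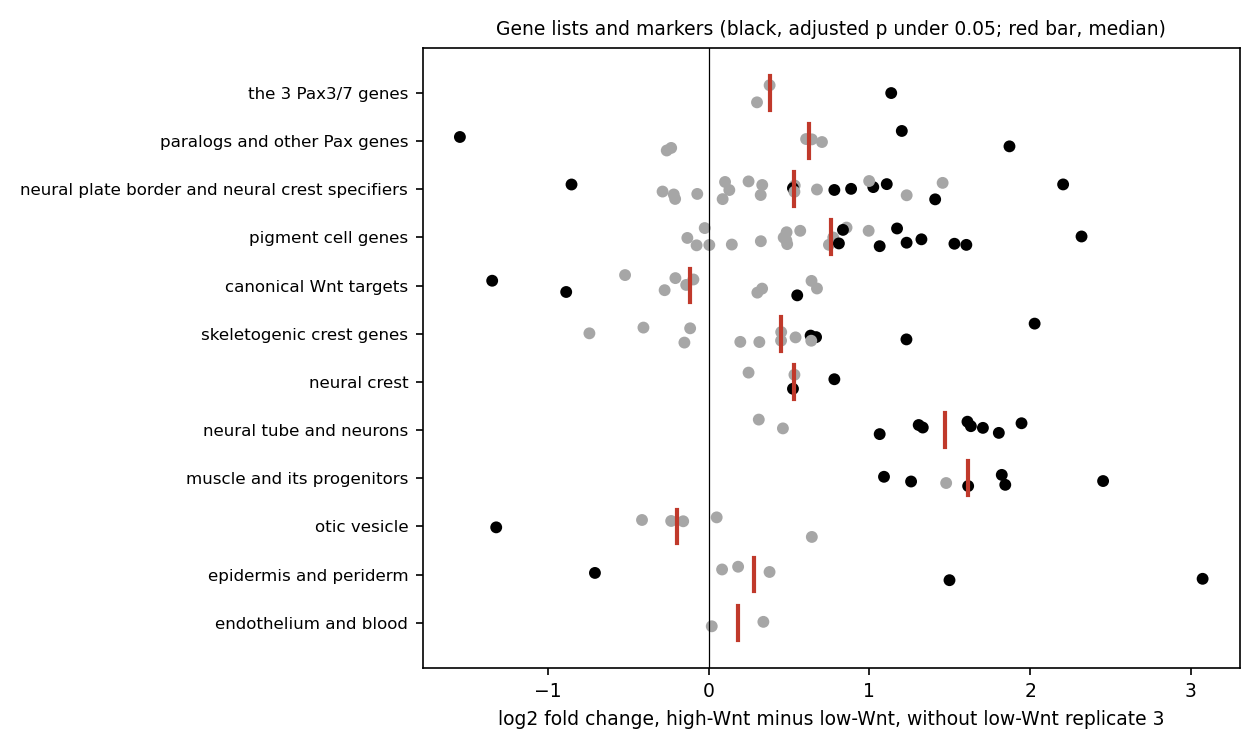
Log2 fold change without low-Wnt replicate 3 (x axis, high-Wnt minus low-Wnt, log2 scale) of each tested gene (points, black for a limma adjusted p under 0.05) in each list (y axis), with list medians as red bars. Neural and muscle markers have medians of 1.47 and 1.61, pigment cell genes 0.76 and canonical Wnt targets -0.12, and pax3a, at 1.14, is the only black point among the 3 Pax3/7 genes.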

How the data were processed

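Per the labels and the paper's methods, the authors aligned Smart-seq2 reads to GRCz11 by STAR and deposited RSEM's TPM for each Ensembl gene. They tested the populations with edgeR, which takes counts and was not rerun on TPM. TPM keeps no sequencing depth.

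Log2(TPM + 1) values were fitted in limma 3.58.1 (R 4.3.3) with population as the only term and an intensity trend. A gene was tested if it reached 1 TPM in 3 libraries, or in 2 where a library was left out, and DE means a Benjamini-Hochberg adjusted p under 0.05 over all tested genes. A gene that reached 1 TPM only in high-Wnt libraries could pass this filter, and could then hardly come out lower. Among list genes this held for MYF5, OLIG2, a DBX1 gene, cdx4 and a MITF gene (ENSDARG00000037833). Without low-Wnt replicate 3 it also held for the second PAX3 gene. Exact tests used scipy 1.17.1 under Python 3.11.15. The procedure was tested on simulated data. Symbols came from a table that held 28988 of the 32057 identifiers. It gives many genes the capitals of the human symbol and often 1 symbol to both duplicates, so list genes were matched without regard to case and, failing that, without a final a or b. Of 123 listed symbols, 6 had no match. The names of the 3 genes came with the rule that selected them. Within each list, the 3 DE genes with the largest changes are named, and for each family gene the 3 most alike genes. The members and lists were chosen with earlier results of these data known. Gene, promoter and protein sequences were not analysed here.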

Additional observations from a re-analysis of the deposited data

How the results depend on the processing

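All 48 values of pax3a, pax7a and pax7b under the 16 alternatives listed at the start were positive. These fits reuse the same libraries, and the median of all tested genes was itself 0.51 in the main fit. Of the 48, 4 passed the adjusted threshold, all with sample quality weights or without low-Wnt replicate 3. With the weights, 2571 of 14163 tested genes were called higher. Without that library the share was 7.17%, or 6.33% with quantile normalization. Leaving out each library gave log2 fold changes of 1.14 to 1.34 for pax3a, 0.30 to 1.53 for pax7a and 0.38 to 1.58 for pax7b, with limma adjusted p from 0.0199 to 0.826, 0.196 to 0.840 and 0.0840 to 0.840. Without low-Wnt replicate 3, 1912 genes were DE, and without any other library 0. Sample quality weights gave pax3a 1.102 (limma adjusted p = 0.00318) and 4128 DE genes. Without low-Wnt replicate 3 and with quantile normalization, pax3a was at 1.05, pax7b at 0.47 and 1838 genes were DE. With median centring in that fit, added after seeing the data, pax3a was at 1.07 and 2146 genes were DE. The DE count, 52 in the main comparison, was 17 at a pseudocount of 0.1, 4 where no gene was filtered, 13 both for genes averaging 5 TPM and where the variance trend was dropped, and quantile normalization of all 6 libraries 177. CCND1, at 0.19 with all 6 libraries, was at -0.079 with quantile normalization, -0.41 with median centring, -0.81 with sample quality weights and -0.89 to 0.77 with each library left out. Without low-Wnt replicate 3 it was at -0.80 with quantile normalization, -0.95 with median centring and -0.89 with the replicate block. The cause was not tested.

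With the replicate block, 168 genes were DE with all 6 libraries and 489 without low-Wnt replicate 3, and the log2 fold change of pax3a without that library was 1.05 (limma adjusted p = 0.142), no longer past the threshold. In that fit PAX1, PAX6, PAX9, SP5, MYC, BARX1 and SLC24A5 did not pass either (limma adjusted p from 0.0550 to 0.173). ZIC1, twist1b, snai1a, KIT, EDNRB, CCND1, dlx4a and PRRX1 still passed (limma adjusted p from 0.0173 to 0.0446). Correlations of the deviations between same-numbered libraries were 0.03, -0.01 and 0.14, and 2 of the 6 libraries correlated best with their own number. Deviations from a mean of 3 libraries depend on each other, and low-Wnt replicate 3 stood apart. The check therefore cannot decide whether equal numbers are pairs. The labels name no pairs, so the main fit used none.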
